A study of Saccharomyces cerevisiae with 12 samples.

Results

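The estradiol response of the reference strain was measured in 6 of the 12 poly(A) RNA-seq libraries of this budding yeast (Saccharomyces cerevisiae) study, 3 after 3 hours with ethanol (EtOH) and 3 after 3 hours with estradiol (E2). The 6 libraries were taken by their labels. Both groups are one haploid strain of mating type a (MATa) whose genotype lists GDP-creEBD78:LEU2 and lox-CEN4-lox:KanMX, with the alleles met15-delta-0, his3-delta-1, ura3-delta-0 and leu2-delta-0. The first of these cassettes encodes Cre recombinase joined to the domain by which a receptor binds estrogen, and the second places the centromere of chromosome IV (CEN4) between lox sites, so the EtOH libraries carry both as well. The other 6 libraries, used here only for comparison, come from a MATa strain given the same agents for the same time. Its genotype also holds a floxed centromere (loxCEN4lox:KanMX) and the recombinase (GDP-creEDB78:LEU2). It adds a histone construct, hht2-hhf2::[HHT-S10D-HHFS]-URA3, and the insertions lys4::LacO:hphNT1, his3::LacR-GFP:HIS3 and trp1::TetO:TRP1 with TetR-mRFP, and further lists leu2-x, bar1-delta- and Ade1. Against that label, BAR1 had 3162 to 3787 counts in each of its libraries. This strain is called S10D-labelled below. A strain with an unfloxed CEN4 is not among the libraries, so an effect of E2 or of active Cre cannot be told apart from the loss of CEN4. Whether the replicates were grown as separate cultures is not stated in the labels. Each p therefore measures only how these libraries vary, which may be technical.

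Cre cuts out the DNA between lox sites, and E2 lets the fused recombinase enter the nucleus. A yeast chromosome without a centromere cannot attach to the spindle and is passed on unevenly at division. Yeast meets many kinds of strain with a shared programme, in which the transcription factors Msn2 and Msn4 bind short stress elements and switch on genes for chaperones, antioxidant enzymes and storage carbohydrates, while genes for ribosomes are turned down. Many yeast enzymes exist as pairs of related genes, of which one serves growth on glucose and the other is used under stress, low glucose or low oxygen.

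The reference libraries held 10262162 to 11806239 counts, and 5990 genes were tested. Levels are CPM, counts scaled to a common library size and composition. Fold changes are log2 of E2 over EtOH, given with a standard error (SE). This SE is the absolute fold change divided by the square root of the test's F statistic. A gene was called at an adjusted p under 0.05 with edgeR's quasi-likelihood test. EtOH replicate 3 was unlike the other libraries of its group. Compared with replicates 1 and 2, its counts gave a chi-square of 31.5 and 32.5 per degree of freedom, and the 10 remaining pairs of replicates gave 1.4 to 5. The markers of the genotype and cell type were read first. URA3 had 0 to 5 counts and MET17, the MET15 locus, 11 to 23 counts in each reference library. HIS3 and LEU2, whose alleles are also listed as deleted, had 627 to 882 and 2813 to 4244 counts, and LEU2 is at the same time the marker of the recombinase cassette. All 6 markers of a cells were found, with a summed level of 3713.5 to 4547.5 CPM in EtOH and 3290.4 to 3435.5 CPM in E2. The 4 alpha-cell markers summed to 57.0 to 63.5 CPM in EtOH and 66.0 to 71.5 CPM in E2, and the 7 markers of meiotic or sporulating cells to 53.3 to 62.1 and 60.6 to 63.9 CPM. Members of the last sum moved both ways. In CPM, SPO11, SPS1, DIT1 and DIT2 were higher in every E2 library than in any EtOH library, SPS4 was lower, and IME1 and NDT80 overlapped. No marker was at 0 in all 6 libraries, and the part of other cell types in the results was not tested.

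The response also ran with gene length. The 1136 shortest protein-coding genes (78 to 663 bases) had a median log2 fold change of -0.18 and the 1129 longest (2126 to 14733 bases) a median of 0.12. The rank correlation of fold change with length was 0.38 across 5647 genes, which share the libraries and their RNA quality, and 0.29 without EtOH replicate 3. In the S10D-labelled strain it was 0.16. Several groups of short or long genes are therefore also given from a fit with an offset for gene length in each library. That fit was chosen after seeing the data, and in it this correlation was -0.03. The part of length in each result was not tested beyond that fit. In bulk RNA, fewer cells of a kind and less RNA per cell cannot be told apart.

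E2 changed a large part of the transcriptome by small amounts. Of the 5990 genes, 2671 were called (44.6%), 1342 higher (22.4%) and 1329 lower (22.2%), while 129 (2.15%) were called and changed at least 2-fold (79 where a mean of at least 10 CPM was required). A fit of the 6 reference libraries alone called 1843 genes, 974 higher and 869 lower. The large changes lay almost all in one direction, with 117 of the 129 higher in E2 and 12 lower. For 2915 genes (48.7%) every E2 library lay on one side of every EtOH library. Without EtOH replicate 3, 26.0% of the genes tested were called higher and 26.0% lower, and with the length offset 20.8% and 19.5%.

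**Figure D1:**
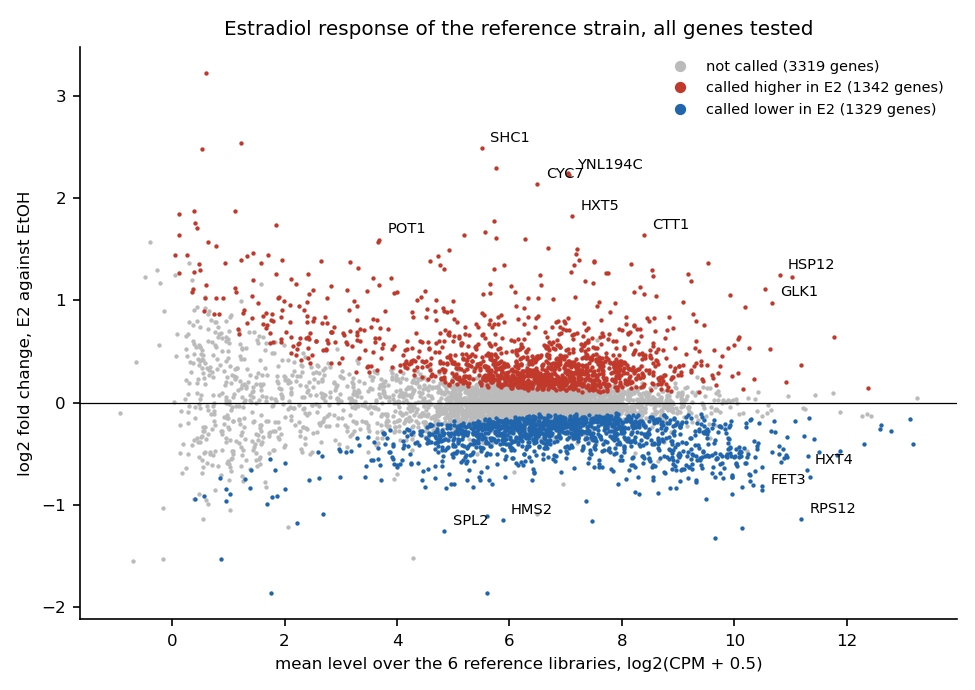
Log2 fold change of E2 against EtOH for all 5990 genes tested, plotted against the mean level over the 6 reference libraries as log2(CPM + 0.5). Each point is a gene, red called higher (1342), blue called lower (1329) and grey not called. Changes past 1 on the log2 scale are nearly all upward.

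The genes named below are the 15 largest and the 15 smallest fold changes among genes that were called, averaged 10 CPM or more and had groups that did not overlap. SHC1 (YER096W), an activator of chitin synthase used in sporulation and in alkaline medium, rose most. Its level was 12.4, 13.3 and 14.9 CPM in EtOH and 72.4, 79.7 and 77.3 CPM in E2, a change of 2.49 ± 0.08 (SE, n = 3 per group, edgeR adjusted p = 7.57e-11). The groups are far apart and each is tight. YNL194C, a membrane protein of the eisosome, the furrow-like domain of the plasma membrane, had 45.4, 42.6 and 51.1 CPM in EtOH and 215.3, 211.2 and 227.7 CPM in E2 (2.23 ± 0.08, adjusted p = 2.16e-10). Its neighbour on chromosome XIV, YNL195C, on the same strand and of unknown function, rose by 1.67 ± 0.07. BSC1 and PRM7, a pair of neighbouring genes of chromosome IV, rose by 2.30 ± 0.22 and 2.25 ± 0.23, and EtOH replicate 3 stood below the other EtOH libraries in both. BSC1 was at 22.99, 23.14 and 8.90 CPM in EtOH and PRM7 at 56.8, 57.1 and 23.4 CPM, and without that library they rose by 1.95 and 1.93. YOR338W, of unknown function, rose by 1.78 ± 0.11.

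Metabolic genes made up most of the other named rises. CYC7, the cytochrome c isoform made in low oxygen, went from 30.2, 27.6 and 41.4 CPM to 145.7, 139.4 and 153.8 CPM (2.14 ± 0.11). HXT5, a hexose transporter of slow growth, had 65.9, 65.4 and 51.7 CPM in EtOH and 217.8, 215.9 and 214.8 CPM in E2 (1.83 ± 0.09). The 3 E2 libraries were nearly equal in HXT5, and all EtOH libraries lay far below them. PUT4, the high-affinity proline permease, rose by 1.65 ± 0.12, from 13.0 to 19.96 CPM in EtOH to 50.9 to 58.1 CPM in E2. CTT1, the cytosolic catalase, rose from 160.5, 171.0 and 158.8 CPM to 489.9, 525.1 and 513.3 CPM (1.64 ± 0.05). CAT2, which makes carnitine esters of acetyl groups, rose by 1.61 ± 0.07 and POT1, the peroxisomal thiolase of beta-oxidation, by 1.60 ± 0.13. PHM7, a membrane protein of the phosphate and stress responses, rose by 1.60 ± 0.06, and TKL2, the minor transketolase, by 1.51 ± 0.07. The small open reading frame YER053C-A rose by 1.57 ± 0.25 and was highest among the EtOH libraries in replicate 3, at 9.4 CPM against 4.4 and 4.2. The adjusted p of these 15 genes ran from 7.57e-11 (SHC1) to 0.000329 (YER053C-A).

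The falls were smaller, and 7 of the 15 named were ribosomal protein genes. SPL2, which regulates low-affinity phosphate uptake, went from 42.4, 37.1 and 39.6 CPM to 17.7, 16.9 and 15.1 CPM (-1.26 ± 0.11, edgeR adjusted p = 1.05e-06). HMS2, a transcription factor gene related to the heat shock factor, went from 84.4, 78.6 and 78.3 CPM to 36.4, 36.7 and 35.6 CPM (-1.15 ± 0.06, adjusted p = 3.63e-09). In both genes the libraries within a group were close and the E2 group lay wholly below the EtOH group. HXT7 and HXT6, high-affinity glucose transporters so alike in sequence that their reads may be split between them, stood at -0.95 ± 0.09 and -1.11 ± 0.16. GCV3, a subunit of the glycine decarboxylase complex, fell by 0.89 ± 0.08 on the log2 scale. The mating agglutinin gene AGA1 stood at -0.89 ± 0.09 and FET3, the ferroxidase of iron uptake, at -0.86 ± 0.05.

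Among the named ribosomal protein genes, EtOH replicate 3 was often the highest library. RPL38 had 704.3, 651.3 and 2099.5 CPM in EtOH and 478.0, 444.5 and 458.3 CPM in E2, with a log2 fold change of -1.32 ± 0.39 that stood at -0.56 ± 0.04 without that library. RPS12 had 2796.0, 2434.8 and 4389.3 CPM against 1641.7, 1356.2 and 1363.8 CPM (-1.14 ± 0.18, and -0.85 ± 0.08 without it). RPL42B (-1.22), RPS28B (-1.16), RPL23B (-0.90) and RPL11A (-0.88) were also highest in that library and stood at -0.99, -0.83, -0.76 and -0.57 without it. RPS9A was lowest in it, at 163.9 CPM against 261.7 and 221.5, and stood at -0.96 with it and -1.13 without. The mitochondrial 21S_RRNA was called lower at -1.86 ± 0.68 with an adjusted p of 0.04999 by edgeR. Its EtOH libraries held 28.7, 44.3 and 153.0 CPM and its E2 libraries 27.4, 16.2 and 18.8 CPM, and it was not called without EtOH replicate 3 (-0.80 ± 0.55, adjusted p = 0.264).

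**Figure D2:**
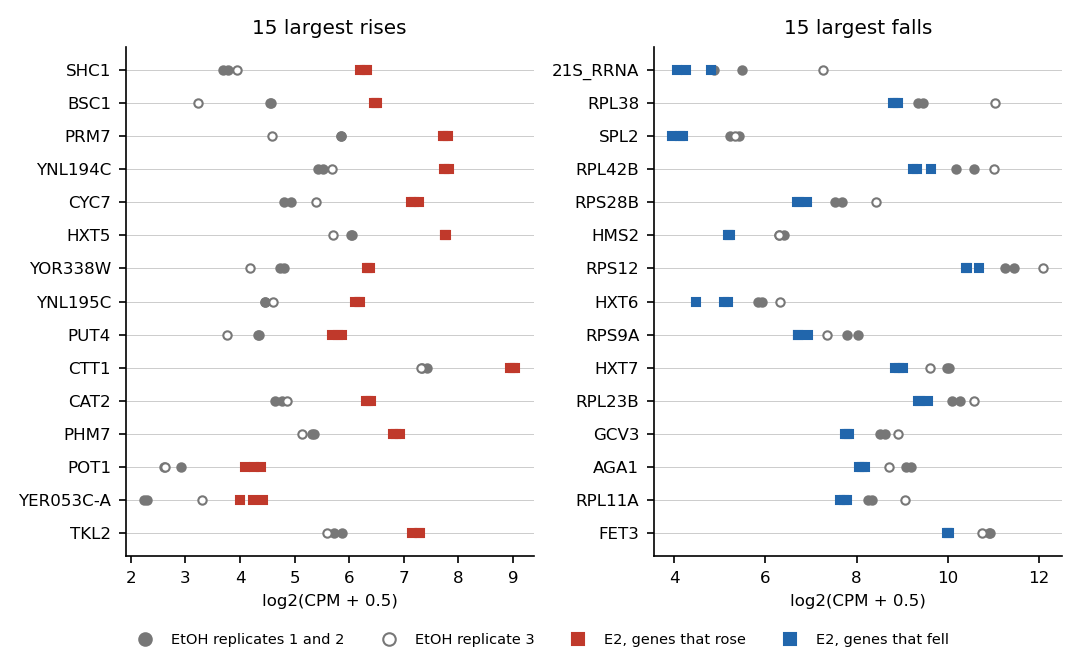
Level of the 15 named genes that rose most (left) and the 15 that fell most (right) in each of the 6 reference libraries, as log2(CPM + 0.5). Grey circles are EtOH libraries, open for replicate 3, and coloured squares are E2 libraries. The groups do not overlap in any of these genes, and the open circle of 21S_RRNA and RPL38 lies far to the right of the other EtOH libraries.

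General stress genes had the highest median of the lists with at least 10 members tested. Counts of members called in the lists below stand beside 22.4% of all genes called higher and 22.2% called lower. Of 44 tested, 34 rose, 5 fell and 5 were not called, and their median log2 fold change was 0.74 (0.91 without EtOH replicate 3), where the median of all genes tested was 0.00. Besides YNL194C, CTT1 and PHM7, the aldehyde dehydrogenase gene ALD3 rose by 1.40 ± 0.07. Heat shock chaperone genes rose in 20 of 33 cases and fell in 3, with a median of 0.35 (0.46 without that library, where 26 rose, and 0.21 without EtOH replicate 1). HSP82, the inducible Hsp90, rose by 1.26 ± 0.05, the Hsp70 gene SSA4 by 1.19 ± 0.06, and HSP104, which pulls proteins out of aggregates, by 1.05 ± 0.06. Antioxidant genes of the thioredoxin, peroxidase and dismutase list rose in 10 of 24 cases and fell in 2 (15 and 2 without EtOH replicate 3), with a median of 0.17 that stood at 0.09 without EtOH replicate 2. They are short genes, and with the length offset 15 rose and 1 fell, with a median of 0.28. SRX1, which repairs oxidised peroxiredoxin, rose by 1.08 ± 0.09 from 8.9 to 10.2 CPM to 19.7 to 20.8 CPM. The peroxiredoxin genes PRX1 and AHP1 rose by 0.76 ± 0.05 and 0.64 ± 0.07.

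The upstream DNA of 5 of the named genes is shown because it holds the stress element, the letters AGGGG on either strand, to which Msn2 and Msn4 bind. Each line gives 160 bases on the strand of the gene, from within the 500 bases before its coding start and no nearer to it than 150 bases, read from the RefSeq R64 genome. Capitals mark the element or its reverse complement. The stretches are chrV:351322-351481 (plus strand) for SHC1, chrXIV:273936-274095 (minus) for YNL194C, chrV:80239-80398 (minus) for CYC7, chrXV:989097-989256 (minus) for PUT4 and chrVII:654134-654293 (plus) for CTT1.
SHC1: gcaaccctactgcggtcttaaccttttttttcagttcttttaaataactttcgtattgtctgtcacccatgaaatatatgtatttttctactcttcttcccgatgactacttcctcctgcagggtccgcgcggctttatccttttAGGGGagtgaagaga
YNL194C: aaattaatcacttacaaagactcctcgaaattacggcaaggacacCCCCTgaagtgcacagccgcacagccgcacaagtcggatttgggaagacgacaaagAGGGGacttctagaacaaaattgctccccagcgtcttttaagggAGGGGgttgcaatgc
CYC7: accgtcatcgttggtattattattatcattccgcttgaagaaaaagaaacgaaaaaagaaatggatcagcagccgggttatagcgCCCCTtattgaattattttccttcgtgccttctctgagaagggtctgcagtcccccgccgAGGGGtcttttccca
PUT4: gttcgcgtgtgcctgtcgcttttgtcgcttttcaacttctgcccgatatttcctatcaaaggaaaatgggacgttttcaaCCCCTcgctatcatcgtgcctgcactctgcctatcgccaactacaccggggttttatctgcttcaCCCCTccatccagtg
CTT1: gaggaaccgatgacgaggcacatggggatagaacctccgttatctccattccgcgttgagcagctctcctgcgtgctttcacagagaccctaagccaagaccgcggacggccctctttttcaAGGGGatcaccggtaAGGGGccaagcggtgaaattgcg
In the whole window of 500 bases SHC1 held 1 element, YNL194C 4, and CYC7, PUT4 and CTT1 3 each. Among the 15 named rises, BSC1, HXT5, PHM7, YER053C-A and TKL2 held it as well, while PRM7, YOR338W, YNL195C, CAT2 and POT1 had no match in this window.

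The element was more frequent before genes that rose. It was in 67 of the 109 windows of genes called at least 2-fold higher (61.5%), in 44.5% of those called higher, in 29.4% of those called lower and in 34.3% of all 5647 windows. Genes with 0, 1, 2 and 3 or more elements had medians of -0.02, 0.02, 0.10 and 0.17, and 19.7%, 26.5%, 39.1% and 50.5% of them were called higher. The heat shock element of Hsf1, searched as GAANNTTC, was in 16.5% of the windows of genes at least 2-fold higher and in 19.3% of all windows. The CCAAT box, searched on both strands like the others, was in 59.6% and 62.7%. These shares describe letters in a window and do not show that a factor bound there.

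Genes for regulators of stress and starvation and for glycogen enzymes were also called higher more often than lower. Among 40 regulators of stress and starvation, 20 rose and 2 fell, with a median of 0.18. SDP1, a phosphatase acting on the cell wall kinase Slt2, rose by 1.22 ± 0.17, XBP1, a repressor made in stress and quiescence, by 1.03 ± 0.06, and the transcription factor gene YAP6 by 1.01 ± 0.08. PDE2, the high-affinity phosphodiesterase that removes cyclic AMP, went from 109.8, 97.0 and 75.2 CPM to 179.2, 165.1 and 157.4 CPM (0.83 ± 0.10). Glycogen genes rose in 7 of 13 cases and fell in none (11 of 13 without EtOH replicate 3), with a median of 0.41. With the length offset 8 rose, and the median was 0.30. The list holds enzymes of both synthesis and breakdown, and both kinds rose. GSY2, the main glycogen synthase, rose by 0.63 ± 0.08 and GIP2, a targeting subunit of the phosphatase that activates it, by 1.08 ± 0.07, while the debranching enzyme GDB1 rose by 1.36 ± 0.06 and SGA1, a glucoamylase of sporulation, by 1.31 ± 0.10.

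Trehalose showed the same mixture. Of its 10 genes 6 rose and 2 fell, with a median of 0.32 that was 0.55 over the 8 outside chromosome IV. With the length offset 5 rose and 2 fell, and the median was 0.24. TSL1, TPS1 and TPS3 of the synthase complex rose by 1.36 ± 0.08, 0.76 ± 0.09 and 0.65 ± 0.07, and the trehalase gene ATH1 by 0.73 ± 0.06. Autophagy and vacuolar protease genes rose in 18 of 31 cases and fell in 2, with a median of 0.30. At their head stood protease inhibitors and receptors. TFS1, an inhibitor of carboxypeptidase Y, rose by 1.24 ± 0.07 and PAI3, an inhibitor of proteinase A, by 0.99 ± 0.09, with the autophagy receptors ATG39 of the nuclear envelope (0.81 ± 0.07) and ATG34 of vacuolar hydrolases (0.74 ± 0.06).

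In sugar metabolism related genes of a pair often moved apart. Among 30 genes of glycolysis and fermentation 9 rose, 5 fell and 16 were not called, with a median of -0.02. The pentose phosphate list split evenly, with 6 of 15 higher and 6 lower. Of its 6 risers 4 were the minor isoenzymes TKL2, GND2 (1.502 ± 0.04), SOL4 (1.39 ± 0.10) and NQM1 (1.35 ± 0.05), and their major partners TKL1, GND1, SOL3 and TAL1 all fell, by 0.14, 0.23, 0.29 and 0.23 on the log2 scale. The other risers were SOL1 (0.41 ± 0.08) and ZWF1, the first enzyme of the pathway (0.27 ± 0.05).

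The share of each pair held by its less abundant member, in CPM per kb of gene, shows this in every library. CYC7 made up 21.4, 20.2 and 27.1% of the pair with CYC1, the aerobic cytochrome c gene, in EtOH and 68.5, 66.8 and 69.2% in E2. The order of the pair was thus turned, with CYC7 at 96.7 CPM per kb against 322.6 for CYC1 in EtOH and 427.8 against 199.7 in E2. GND2, the minor 6-phosphogluconate dehydrogenase, held 11.7, 12.1 and 11.8% of its pair in EtOH and 31.8, 30.6 and 30.4% in E2. SOL4, a lactonase of the same pathway, went from 37.1 ± 2.63% to 65.7 ± 0.378% (SD, n = 3), NQM1, a transaldolase, from 8.14 ± 0.379% to 20.9 ± 0.655%, and TKL2 from 6.85 ± 0.464% to 18.8 ± 0.442%.

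At the entry of glucose, some transporter and kinase pairs moved apart and others did not. The hexokinase gene HXK2 fell by 0.64 ± 0.04 on the log2 scale while the glucokinase gene GLK1 rose by 0.98 ± 0.06, and GLK1 went from 49.4 ± 3.02% to 75.1 ± 0.722% of their sum. HXK1, at 1215.0 CPM per kb in EtOH against 747.1 for HXK2 and 730.9 for GLK1, fell with HXK2 (-0.28 ± 0.06). HXT5 went from 47.5 ± 7.78% to 87.3 ± 2.84% against HXT6. HXT7 and HXT6 both fell, and HXT3 rose by 0.47 ± 0.07 while HXT1 was not called (0.08 ± 0.17). GPD1, the glycerol-3-phosphate dehydrogenase of salt stress and a gene of chromosome IV, fell by 0.45 ± 0.07, and its partner GPD2 rose by 0.36 ± 0.07. The minor pyruvate decarboxylase genes PDC5 (0.67 ± 0.08) and PDC6 (1.04 ± 0.12) rose while PDC1 fell by 0.28 ± 0.08, yet both remained small beside it, at 0.701% and 0.442% of their sums with PDC1 in E2.

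Among 75 such pairs with both members tested, 16 were called in opposite directions, and in 13 of these the less abundant member, by the mean of the EtOH libraries, was the one that rose. By EtOH replicates 1 and 2 alone it was 12, since HXT5 held 52.7% and 51.2% of its pair with HXT6 in these and 38.6% in replicate 3. The share of the less abundant member was higher in every E2 library than in any EtOH library in 35 pairs, lower in 17 and overlapping in 23. That member was picked by the EtOH levels that also enter the fold change, so its rise is favoured by the choice. The pairs were chosen with earlier results known. Of all genes tested, 22.4% were called higher and 22.2% lower, and no share expected for pairs was computed. Outside sugar metabolism, YNL194C went from 43.5 ± 3.26% to 86.0 ± 0.852% of its pair with FMP45, another eisosome protein gene of chromosome IV. The low-oxygen translation factor gene ANB1 went from 1.245 ± 0.146% to 2.90 ± 0.228% of its pair with HYP2, and RNR3, a large subunit of ribonucleotide reductase, from 2.75 ± 0.363% to 5.74 ± 0.379% beside RNR1. The 3 pairs that moved the other way were PGM2 over PGM1, phosphoglucomutases, the ribosome-bound Hsp70 genes SSB1 over SSB2, and IMD4 over IMD3 of guanine nucleotide synthesis. Reads of near-identical pairs such as SSB1 and SSB2 may be split between them, so their shares are uncertain.

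**Figure D3:**
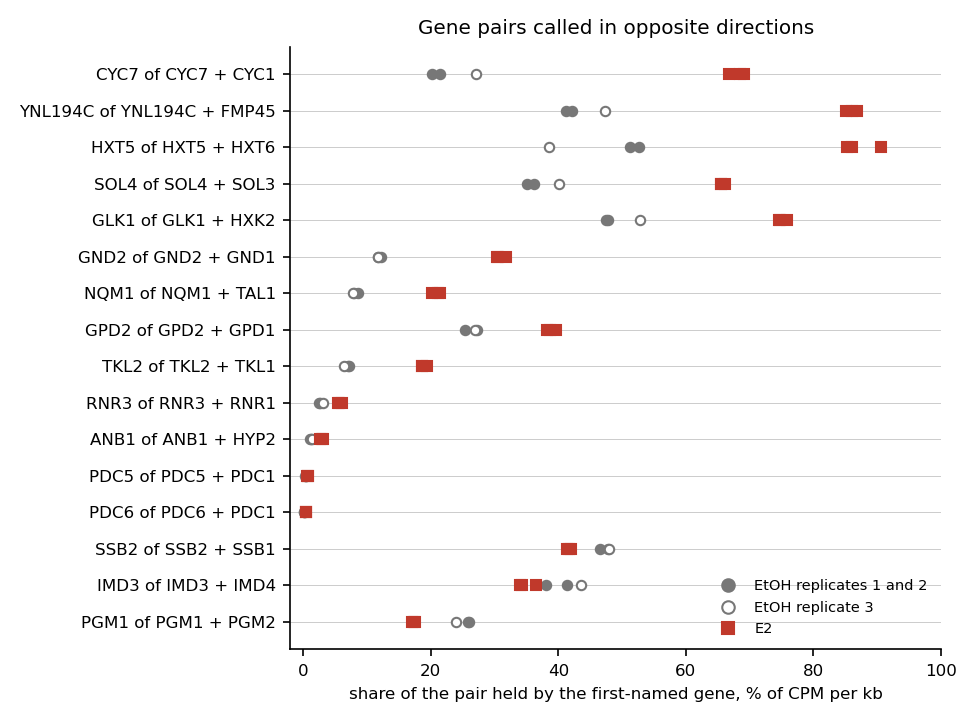
Share of the less abundant member in the 16 gene pairs called in opposite directions, as a percentage of the pair's summed CPM per kb, in each of the 6 reference libraries. Grey circles are EtOH libraries, open for replicate 3, and red squares are E2 libraries. The share is higher in E2 in the upper 13 pairs, with CYC7 moving from 22.9% to 68.2%, and lower in PGM1, IMD3 and SSB2.

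Genes for carbon sources other than glucose rose from low levels. Of 30 genes of gluconeogenesis, the glyoxylate cycle and alternative carbon, 17 rose and 4 fell, with a median of 0.31. SIP4, an activator of gluconeogenic genes, went from 1.256, 1.254 and 1.728 CPM to 5.55, 4.51 and 4.29 CPM (1.74 ± 0.21, edgeR adjusted p = 1.41e-05). ADY2, an acetate transporter, went from 1.74, 1.64 and 2.07 CPM to 4.260, 5.199 and 3.703 CPM (1.26 ± 0.22). Both remained rare transcripts. Peroxisome and beta-oxidation genes rose in 11 of 31 cases (35.5%, against 22.4% of all genes) and fell in 3, led by CAT2 and POT1, with the mitochondrial carnitine carrier CRC1 at 0.70 ± 0.12 and the multifunctional enzyme FOX2 at 0.66 ± 0.08. Fatty acid synthesis genes went the other way in 7 of 16 cases, with OLE1, the only fatty acid desaturase of yeast, going from 1992.3 to 2065.3 CPM in EtOH to 1467.7 to 1578.2 CPM in E2 (-0.42 ± 0.04), and 2 of the 16 rose.

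The respiratory chain and ATP synthase genes fell in 15 of 40 cases and rose in 1, with a median of -0.15, and without EtOH replicate 3 the counts were 17 and 3 and the median -0.05. They are short genes, and with the length offset 4 fell and 6 rose, with a median of -0.02. The called falls that held in that fit included CYC1, SDH4, a succinate dehydrogenase subunit (-0.44 ± 0.04, and -0.28 with the offset), and QCR7 of complex III (-0.33 ± 0.04, and -0.15). INO1, which makes inositol phosphate and is the classic target of the phospholipid regulators, rose by 1.499 ± 0.07. It stood apart in its list, where 6 of 30 genes rose and 10 fell. PLB2, a lysophospholipase, fell by 0.75 ± 0.05 on the log2 scale.

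Genes for nitrogen uptake and breakdown were called higher more often than lower, with many not called. Of 28 genes for the breakdown of nitrogen compounds 13 rose and 2 fell, with a median of 0.24 (14 and 4 without EtOH replicate 3, and a median of 0.15 without EtOH replicate 1). With the length offset 10 rose and 2 fell, with a median of 0.19. After PUT4, the urea transporter DUR3 rose by 0.88 ± 0.07, UGA2, which uses the breakdown product of gamma-aminobutyrate, by 0.85 ± 0.09, and the urea amidolyase DUR12 by 0.78 ± 0.07. Among 31 amino acid permease genes 12 rose (38.7%, against 22.4% of all genes) and 6 fell, and their median of 0.05 stood at -0.02 without EtOH replicate 3. They are long genes, and with the length offset 11 rose and 9 fell, with a median of -0.01. AGP1, a broad amino acid permease, rose by 1.04 ± 0.07 and the general permease GAP1 by 0.84 ± 0.06, while the oligopeptide transporter gene OPT2 went from 37.7 to 39.9 CPM in EtOH to 20.9 to 23.5 CPM in E2 (-0.80 ± 0.07).

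Genes of sulfur uptake and methionine synthesis were mostly higher or not called. Of 38 sulfate assimilation and methionine genes 21 rose and 2 fell, with a median of 0.24 (22 and 5 without EtOH replicate 3). STR3, which makes homocysteine from cystathionine, rose from 7.6 to 9.9 CPM to 18.5 to 21.9 CPM (1.22 ± 0.11). MET13, a methylenetetrahydrofolate reductase, rose by 1.16 ± 0.09, MET2, which starts the branch from homoserine, by 1.09 ± 0.06, and MET5, a sulfite reductase subunit, from 112.6 to 139.1 CPM to 246.2 to 261.6 CPM (0.99 ± 0.07). The strain lacks MET17, the enzyme that joins sulfide to the carbon chain, in EtOH and E2 alike. In the list of lysine synthesis 7 of 11 genes rose and 1 fell, led by LYS20 (0.53 ± 0.06) and LYS21 (0.44 ± 0.07), homocitrate synthase genes of chromosome IV. All 4 of its chromosome IV members rose, and of the 7 elsewhere 3 rose and 1 fell, with a median of -0.11. With the length offset 4 of the 11 rose and 2 fell. Arginine synthesis had 5 of 13 genes higher and 1 lower (8 and 1 without EtOH replicate 3), with CPA1, which acts in carbamoyl phosphate synthesis, at 0.67 ± 0.05.

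One-carbon and nucleotide genes were among those that fell. The list of glutamate, proline and serine synthesis had 13 of 28 genes lower and 5 higher. Its median of -0.14 stood at -0.06 without EtOH replicate 3, where 13 fell and 6 rose. Its falls included GCV2 (-0.66 ± 0.05), which like GCV3 belongs to glycine decarboxylase, and its rises GLT1, the glutamate synthase (0.87 ± 0.09), and SER3 of serine synthesis (0.70 ± 0.06). GLT1 was at 469.5, 479.1 and 358.2 CPM in EtOH and 726.9, 808.3 and 849.1 CPM in E2. Purine synthesis genes fell in 12 of 23 cases and rose in 3, with IMD2 at -0.67 ± 0.07, ADE17 at -0.53 ± 0.06 and ADE13 at -0.42 ± 0.08. The purine median of -0.17 stood at -0.09 without EtOH replicate 3, where 10 fell and 4 rose. Of 18 pyrimidine genes 8 fell and 2 rose, and URA1, dihydroorotate dehydrogenase, went from 646.6, 670.9 and 695.3 CPM to 417.3, 431.8 and 433.2 CPM (-0.65 ± 0.04).

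Iron and cell wall genes showed no common direction. Iron genes were called higher in 11 of 33 cases and lower in 10. FET3 held 1910.7, 1949.9 and 1718.1 CPM in EtOH and 1006.8, 1031.5 and 1040.6 CPM in E2, and TIS11, which destroys messages of iron-using proteins, stood at -0.66 ± 0.06, while the cell wall siderophore protein FIT1 rose by 0.68 ± 0.11. Phosphate starvation genes fell in 14 of 28 cases and rose in 5, and the nucleotide phosphatase PHM8 rose by 1.15 ± 0.13. Of 43 cell wall integrity genes 16 rose and 16 fell. Within them the related wall proteins PIR3 and PIR1 moved apart, PIR3 rising by 1.27 ± 0.06 and PIR1 standing at -0.66 ± 0.05, and the kinase gene SLT2 rose by 0.71 ± 0.05. SPI1, a wall protein of stationary phase, rose by 1.06 ± 0.21.

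Genes of the cytoplasmic ribosome fell as a block. In the large subunit 74 of 82 genes fell and none rose, and in the small subunit 51 of 56 fell and none rose, with medians of -0.53 and -0.54. The 22.2% of all genes called lower is the share to set beside these counts. With the length offset, 67 and 49 fell and 1 and 3 rose, with medians of -0.43 and -0.45, and without EtOH replicate 3 the medians were -0.51 and -0.53. The assembly factors of the ribosome did not follow, since of 114 ribosome biogenesis genes 41 rose and 3 fell, with a median of 0.10. Without EtOH replicate 3, 41 of them rose and 16 fell, with a median of 0.05.

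Other parts of translation moved less. Mitochondrial ribosomal protein genes fell in 34 of 71 cases and rose in none, with a median of -0.21 (-0.14 without EtOH replicate 3), but they are short, and with the length offset 13 fell and 2 rose, with a median of -0.07. RSM19 was at 81.4, 71.8 and 117.7 CPM in EtOH and 64.1, 57.4 and 55.8 CPM in E2 (-0.61 ± 0.15, and -0.37 without EtOH replicate 3). Translation factor genes fell in 16 of 48 cases (33.3%, against 22.2% of all genes) and rose in 8, with the initiation factor TIF11 at -0.59 ± 0.09 and the ribosome-associated STM1 at -0.46 ± 0.05. HEF3, a stress-made copy of elongation factor 3, rose by 0.56 ± 0.09. Cytoplasmic tRNA synthetase genes fell in 7 of 21 cases (33.3%) and rose in 2. Both that rose lie on chromosome IV, among them KRS1, for lysine (0.41 ± 0.05), and none of the 18 elsewhere rose.

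Histone genes and genes of daughter cell separation were lower more often than higher. Of 11 histone genes 10 fell and none rose, with a median of -0.45. HTA2, HHT1, HHF1 and HHF2 stood at -0.68 ± 0.08, -0.66 ± 0.08, -0.62 ± 0.06 and -0.60 ± 0.08, and reads of such pairs may be shared. The member not called was HTB1, a histone H2B gene of chromosome IV, at 1023.3, 977.4 and 982.2 CPM in EtOH and 1006.8, 1007.4 and 1024.6 CPM in E2. Its copy on chromosome II, HTB2, held 509.2, 503.4 and 568.8 CPM in EtOH and 384.9, 386.1 and 383.5 CPM in E2 (-0.45 ± 0.05). With the length offset 8 histone genes fell and 1, HTB1, rose (0.21), and the median was -0.27.

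Among 21 genes of daughter cell separation 11 fell and 5 rose. NIS1, a bud neck protein, went from 147.2 to 152.1 CPM to 89.7 to 95.3 CPM (-0.68 ± 0.05), and DSE2, a daughter-specific secreted protein, from 1227.5 to 1277.7 CPM to 797.6 to 838.4 CPM (-0.61 ± 0.04). Kinetochore and spindle checkpoint genes fell in 17 of 48 cases and rose in 4, with a median of -0.15 that stood at -0.13 with the length offset. The 3 lowest encode small subunits of the ring-shaped DASH complex, namely DAD3 (-0.80 ± 0.09), DAD1 (-0.73 ± 0.18) and HSK3 (-0.65 ± 0.10). Genes of small proteins are short, and 41.5% of the 1136 shortest genes were called lower. The part of length in these 3 falls was not tested. DAD1 was at 104.0 CPM in EtOH replicate 3 against 61.1 and 59.3 in the others, and stood at -0.41 without it. The 9 genes specific to a cells fell in 5 cases and rose in none, and the pheromone gene MFA1 (-0.79 ± 0.11), the agglutinin AGA2 (-0.64 ± 0.07), BAR1 (-0.52 ± 0.06) and the receptor STE2 (-0.43 ± 0.04) were the largest changes. Pheromone response genes fell in 13 of 29 cases and rose in 5, with the membrane protein PRM10 the exception of greatest size (1.38 ± 0.13).

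DNA damage and sporulation lists leaned upward. Of 30 DNA damage inducible genes 15 rose and 2 fell, with a median of 0.21 that was 0.14 outside chromosome IV (18 and 4 without EtOH replicate 3). RNR3 rose by 0.92 ± 0.10, the polyubiquitin gene UBI4 by 0.84 ± 0.05 and the repair gene RAD16 by 0.77 ± 0.07. Meiosis and sporulation genes, most of them rare in these libraries, rose in 18 of 42 cases and fell in 1 (17 and 3 without EtOH replicate 3). The kinase gene MEK1 rose by 1.57 ± 0.52 and SPO19, a spore protein gene, by 1.76 ± 0.49.

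**Figure D4:**
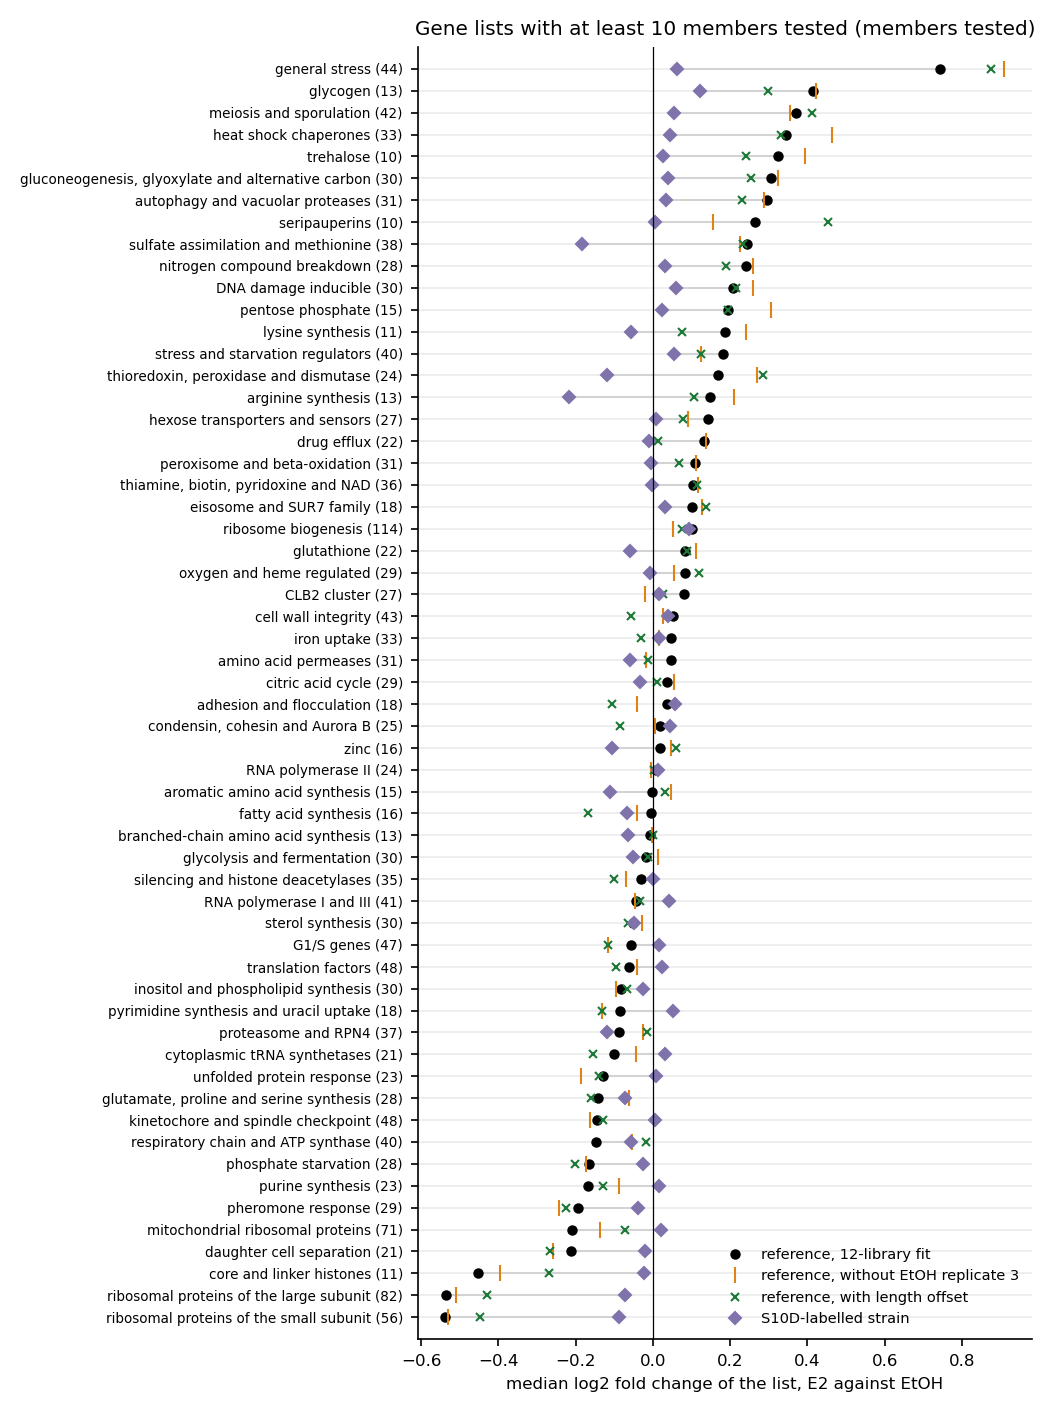
Median log2 fold change of E2 against EtOH in each list with at least 10 members tested, the number tested in brackets. Black circles are the reference strain in the 12-library fit, orange ticks the fit without EtOH replicate 3, green crosses the fit with a length offset and purple diamonds the S10D-labelled strain. General stress stands highest at 0.74 and both ribosomal protein lists lowest at -0.53 and -0.54. In these lists the purple diamonds lie closer to 0, and in some others, such as arginine synthesis, farther from it.

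Genes of chromosome IV, which carries the floxed centromere, ran above the rest of the genome. For each library the median deviation of its 737 genes from the EtOH mean, minus that of the 4910 other nuclear genes, was 0.00 in the 3 EtOH libraries and 0.16, 0.13 and 0.14 in the 3 E2 libraries. The groups do not overlap, and the exact 2-sided permutation test of 3 against 3 libraries gave p = 0.1, the smallest it can give. The EtOH libraries were measured against their own mean and the E2 libraries were not. The p is therefore descriptive only. Chromosome IV genes were called higher in 308 cases (41.8%) and lower in 99 (13.4%), against 20.5% and 24.1% of the other nuclear genes. The division of lists by chromosome below was made after the data had been seen.

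Ribosomal protein genes of chromosome IV did not take part in the fall to the same degree. Of the 19 on chromosome IV 8 fell and 11 were not called, with a median of -0.17, and of the 119 elsewhere 117 fell and 2 were not called, with a median of -0.55. The gap between both sets was 0.426, 0.406 and 0.385 in the E2 libraries and 0.012, -0.005 and 0.007 in the EtOH libraries. The exact permutation test gave p = 0.1, the smallest possible. This p is descriptive only, since deviations were again taken from the EtOH mean. In 12 duplicated families 1 copy lies on chromosome IV and the other elsewhere, and in 12 of 12 the copy on chromosome IV had the higher fold change, with a median difference of 0.52 (0.43 without EtOH replicate 3). All 12 copies elsewhere were called lower, against 4 of the copies on chromosome IV. In the 44 families with no copy there, the copies differed by a median of 0.10 and by 0.57 at most.

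The duplicated genes RPS29A and RPS29B show the pattern library by library. RPS29A, on chromosome XII, held 557.7, 505.9 and 545.2 CPM in EtOH and 353.4, 329.3 and 315.1 CPM in E2 (-0.69 ± 0.06). RPS29B, on chromosome IV, held 512.9, 474.3 and 469.3 CPM in EtOH and 493.9, 433.2 and 475.9 CPM in E2 (-0.05 ± 0.05, edgeR adjusted p = 0.444). RPS16A on chromosome XIII stood at -0.51 ± 0.08 and RPS16B on chromosome IV at 0.01 ± 0.05, and RPL13B and RPL13A at -0.50 ± 0.04 and 0.07 ± 0.04. These examples were chosen after their values were seen, and reads of copies that are nearly alike may be split between them.

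Several other lists were higher on chromosome IV than elsewhere. Proteasome genes rose in 7 of 7 cases on chromosome IV (median 0.45), where 2 of the 30 elsewhere rose and 12 fell (median -0.13). RPN9, a lid subunit, went from 110.0, 117.1 and 139.2 CPM to 209.1, 193.4 and 175.0 CPM. The list of condensin, cohesin and Aurora B rose in 5 of 5 cases on chromosome IV (median 0.61) and in none of 20 elsewhere, where 3 fell. SCC2, the cohesin loader, went from 85.0, 84.3 and 80.2 CPM to 155.1, 142.4 and 134.9 CPM (0.79 ± 0.06), the cohesin subunit MCD1 rose by 0.63 ± 0.05 and RAD61, which releases cohesin, by 0.61 ± 0.07. Ribosome biogenesis genes rose in 13 of 16 cases on chromosome IV (median 0.40) and in 28 of 98 elsewhere (median 0.08), and the 4 with the largest changes, UTP6, TSR1, BFR2 and UTP4, all lie on it. Of the G1/S list, 5 of 6 rose there (median 0.44) and 3 of 41 elsewhere, and the bud neck kinase GIN4 rose by 0.89 ± 0.06.

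General stress genes of chromosome IV went the other way. Of the 5 there none rose and 4 fell, with a median of -0.45, where 34 of the 39 elsewhere rose and 1 fell, with a median of 0.82. GPD1 was at 261.9, 301.7 and 339.6 CPM in EtOH and 211.6, 228.7 and 220.3 CPM in E2, and FMP16 at 75.1, 79.2 and 81.4 CPM against 58.2, 52.9 and 50.2 CPM (-0.55 ± 0.07). FMP45 stood at -0.76 ± 0.07 and the chaperone-like HSP31 at -0.17 ± 0.06. HSP31 was not called without EtOH replicate 3 (-0.07, edgeR adjusted p = 0.249) or with the length offset (-0.03, adjusted p = 0.693). RTN2, which shapes the endoplasmic reticulum, was not called (0.15 ± 0.06). Over the 24 lists with at least 5 members on chromosome IV, the median there was above that of the other members in 19 and below in 5, namely general stress, heat shock chaperones, hexose transporters, oxygen and heme regulated genes and the respiratory chain. A lower median was not always a fall. Of the 5 chaperone genes on chromosome IV 4 rose and none fell (median 0.17, against 0.35 elsewhere). Of the 5 oxygen and heme regulated genes there 1 rose and none fell.

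The same crossing appeared when all genes were split by stress elements instead of by list. Elsewhere in the genome the median rose from -0.04 (3214 genes without an element) over 0.01 (1286 with 1) to 0.15 (410 with 2 or more), and on chromosome IV it fell from 0.16 (497 genes) over 0.11 (180) to -0.03 (60). Of the genes with 2 or more elements, 184 of 410 were called higher elsewhere and 12 of 60 on chromosome IV, and of those without an element 15.7% and 45.3%. Per library, the gap of chromosome IV to the rest among genes with 2 or more elements was -0.19, -0.20 and -0.19 in E2 and 0.01, -0.04 and 0.02 in EtOH. Among genes without an element the gap was 0.20, 0.19 and 0.18 in E2 and 0.00 in EtOH. Both comparisons gave the exact permutation p of 0.1, the smallest possible. Here too deviations were taken from the EtOH mean, so this p is descriptive only. Without EtOH replicate 3 the medians of genes with 2 or more elements were 0.04 on chromosome IV and 0.18 elsewhere, and with the length offset 0.04 and 0.14.

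**Figure D5:**
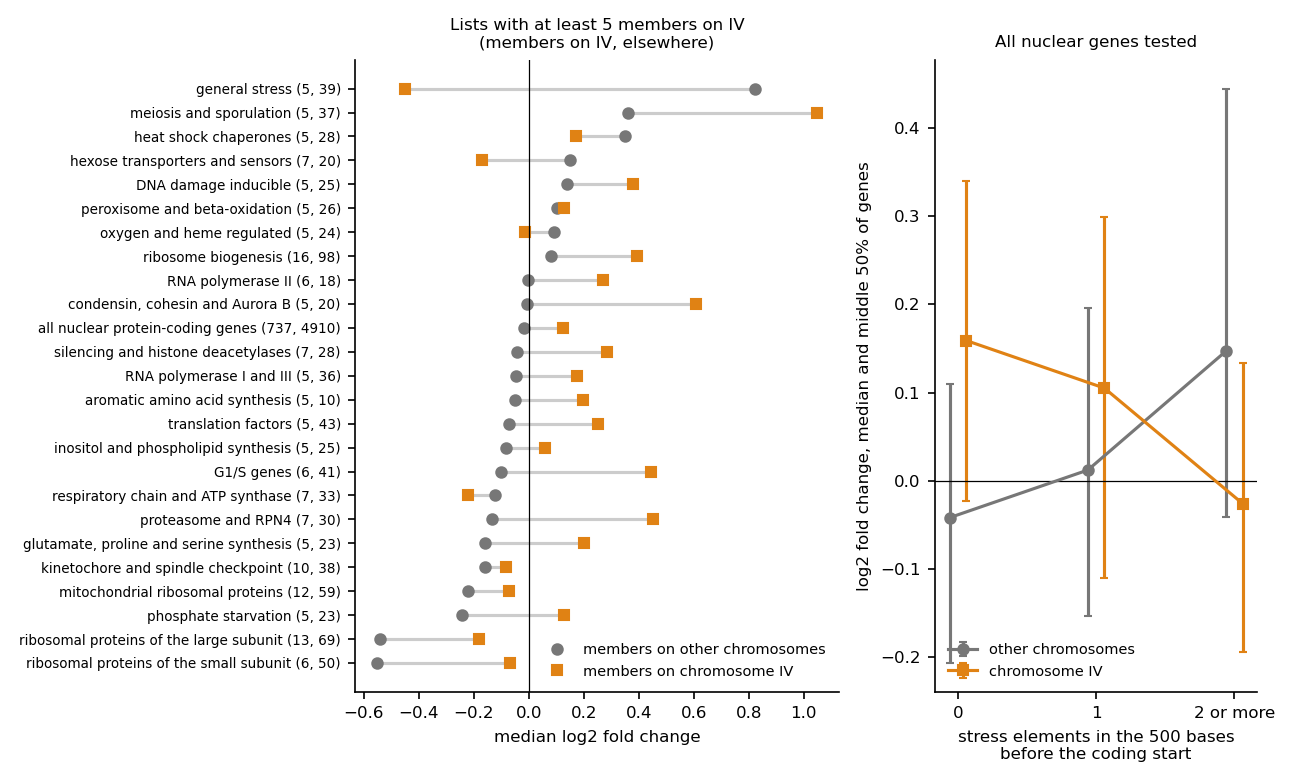
Left, median log2 fold change of list members on chromosome IV (orange squares) and on other chromosomes (grey circles), with both numbers of members in brackets. Right, median (points) and middle 50% (bars) of the log2 fold change of all nuclear genes tested, by the number of stress elements in the 500 bases before the coding start. The orange line falls from 0.16 to -0.03 where the grey line rises from -0.04 to 0.15.

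The S10D-labelled strain answered the same treatment with fewer calls. In it 273 genes were called (4.56%), and 220 genes were called in both strains, which is 80.6% of its calls and 8.24% of those of the reference strain. Of these 220, 175 had the same direction and 45 the opposite. Tested directly, the responses differed in 1224 genes, 588 with a higher fold change in the S10D-labelled strain (9.82%) and 636 with a lower one (10.6%), and in 1994 genes without reference EtOH replicate 3. SHC1 rose by 0.98 ± 0.09 there, YNL194C by 1.22 ± 0.10 and HXT5 stood at 0.31 ± 0.12, each below its change in the reference strain by this test.

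By list, the differences were unequal. In general stress 29 of 44 genes had the lower response in the S10D-labelled strain and 1 the higher, with a median there of 0.06. For sulfate assimilation and methionine 21 of 38 were lower and 1 higher, and the median was below 0, at -0.18. Ribosomal protein genes had a higher, less negative, response in 66 of 82 cases in the large subunit and 47 of 56 in the small, with medians of -0.07 and -0.09. Chromosome IV genes had a median of 0.07 in the S10D-labelled strain and the other nuclear genes one of -0.01. Of the 24 lists with at least 5 members on chromosome IV, the median there was above that of the other members in 21. In the 12 ribosomal families divided between chromosome IV and another chromosome, the copy on chromosome IV was again the higher in 12 of 12, with a median difference of 0.15. Genes with 2 or more stress elements had medians of 0.00 on chromosome IV and 0.02 elsewhere in that strain. The strains differ in many alleles besides the histone construct, and the part of each cannot be told apart.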

How the data were processed

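The authors deposited raw counts of reads for each gene, made from stranded poly(A) libraries per the labels. The submitters' processing notes name HTSeq 0.6.1p1, STAR 2.5.3a, cutadapt 1.10 and bcl2fastq 2.20.0.422, with build R64. The counting settings are not given in the sources used here. Of 7127 features 6047 were placed on R64 by locus tag and 41 by symbol. Libraries held 9362173 to 11806239 counts. Read numbers without molecular identifiers are not independent molecules.

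Features kept by filterByExpr (minimum count 10, minimum total 15) entered edgeR 4.0.16 in R 4.3.3, with TMM factors and a robust, 2-sided quasi-likelihood test of contrasts between 4 group means fitted to 12 libraries, with Benjamini-Hochberg adjustment over all genes. The members, lists and pairs were chosen with earlier results of these data known. Named were the 15 largest and smallest changes, up to 4 members a list, pair members and marker genes, and other genes were chosen after their values were seen. The length offset (lowess of log ratio on gene span, in each library) and the splits by chromosome IV were chosen after seeing the data. Upstream windows were the 500 bases before the coding start in the R64 genome, in place of promoters from a deposited table. Scripts were tested on simulated data.

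Alternatives were DESeq2 1.42.0, its size factors in edgeR, TMM factors without chromosome IV, list members outside chromosome IV, a mean of at least 10 CPM, no filter, the 6 reference libraries alone, the replicate number as a block, each reference library left out, and the length offset. The correlation of deviations of EtOH and E2 libraries with the same replicate number was 0.097, 0.086 and 0.008, so these numbers were not taken to pair them.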

Additional observations from a re-analysis of the deposited data

Results flagged for a closer look

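The E2 response of 27 of the 30 named genes differed between the strains by a direct test of the difference (edgeR, interaction of strain and treatment, adjusted p from 4.9e-08 for CTT1 to 0.0383 for HXT6). Values are the log2 fold change in the S10D-labelled strain minus that in the reference strain. All 15 named genes that rose in the reference strain were in this group, each with the smaller change in the S10D-labelled strain. The difference was -2.06 for PRM7, -1.97 for BSC1, -1.70 for POT1, -1.67 for YER053C-A and -1.65 for CYC7. It was -1.52 for HXT5, -1.51 for YOR338W and SHC1, -1.46 for CTT1, -1.31 for PUT4 and -1.23 for CAT2, and -1.20 for PHM7, -1.13 for YNL195C, -1.005 for YNL194C and -0.99 for TKL2.

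Of the 15 named genes that fell, 12 differed, each with the less negative change in the S10D-labelled strain. The difference was 1.46 for SPL2, 1.05 for RPL42B, 1.04 for RPS12, 1.01 for RPS28B, 0.90 for HXT6 and 0.89 for HMS2. It was 0.85 for FET3, 0.84 for RPL11A, 0.77 for RPL23B, 0.76 for GCV3, 0.75 for AGA1 and 0.69 for HXT7. The test did not call 21S_RRNA, RPL38 or RPS9A. These genes were named for their change in the reference strain, so a smaller change in another strain is favoured by the choice, and the strains differ in many alleles.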

How the results depend on the processing

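Leaving out each of the 6 reference libraries in turn gave 2133 to 3133 genes called, 1103 to 1566 higher, 1030 to 1567 lower, 126 to 145 at least 2-fold, 906 to 1994 in the difference of responses (1994 without reference EtOH replicate 3) and a chromosome IV median of 0.139 to 0.146 above the other nuclear genes. No library of the S10D-labelled strain was left out. The number called lower was 869 in a fit of the 6 reference libraries alone. With a mean of at least 10 CPM required, 79 genes were called at least 2-fold, where fewer genes were tested. With scaling factors from genes outside chromosome IV, 1445 genes were called higher and 1201 lower. The chromosome IV median was 0.158 above the rest with the length offset. The replicate number as a block gave 2679 calls and 1212 in the difference. Correlations of same-numbered libraries were all under 0.1, which cannot show whether these numbers pair the libraries. The block moved no count by over 1.5 times.

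Of 330 values of named genes compared over alternatives, 319 kept their direction and call, and not every alternative listed above entered this count. The 11 others were 21S_RRNA under 8 alternatives (adjusted p 0.0504 to 0.264) and RPL38 under 3 (adjusted p 0.0558 to 0.0583), and the cause was not tested. List medians moved by less than the spread between libraries in 677 cases and by more in 115.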

Other observations

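Some large changes lay outside the lists, in genes chosen after their values were seen. BDH2, a putative butanediol dehydrogenase, rose by 1.46 ± 0.14 (edgeR), from 61.2, 67.8 and 102.1 CPM in EtOH to 197.2, 217.0 and 222.1 CPM in E2. PMA2, the minor plasma membrane proton pump, rose by 1.38 ± 0.08, and HSP30, a negative regulator of the pump, by 1.30 ± 0.23 (1.74 without EtOH replicate 3, where its level was 326.1 CPM against 160.6 and 156.0). The spore aquaporin gene AQY1 rose by 1.34 ± 0.08, from 13.6 to 15.8 CPM to 37.2 to 39.2 CPM. GID11, a substrate receptor of the ubiquitin ligase that degrades gluconeogenic enzymes, rose by 1.35 ± 0.10, and YPS6, a cell surface protease, by 1.252 ± 0.05.

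Among falls outside the lists, ASC1, a scaffold of the small ribosomal subunit, went from 1420.8, 1305.3 and 1587.1 CPM to 828.2, 815.8 and 791.7 CPM (-0.82 ± 0.06, and -0.82 with the length offset). LSM5 and LSM6, of a ring that binds RNA ends, stood at -0.65 ± 0.11 and -0.68 ± 0.19, both were highest in EtOH replicate 3, and they stood at -0.48 and -0.34 without it.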
